A study of Homo sapiens with 16 samples.

Results

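The genes described here are 9 components of the replication fork: the 4 subunits of the GINS complex (GINS1, GINS2, GINS3 and GINS4), CDC45, the fork protection genes TIMELESS, TIPIN and CLSPN, and WDHD1. They were chosen by name, with no measured value in the rule but with earlier results of these data known. All probe sets that carry exactly 1 symbol equal to a member were taken. That gave 21 probe sets of the 41097 with 1 symbol, and 9 genes of 19775. All 9 genes were bright enough to be tested, among 13483 genes that were.

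The study measured expression on 16 arrays, in 4 established human lines of T-cell acute lymphoblastic leukaemia named CEM, CUTL1 (written CUTL-1 in the series' design text), DND41 and Jurkat. Each line was treated for 15 h with DMSO, the vehicle, or with 1 uM PD-0332991, and each of the 8 groups has 2 arrays. PD-0332991, known as palbociclib, inhibits the cyclin-dependent kinases CDK4 and CDK6. Whether the 2 arrays of a group are separate cultures is not stated in the labels, and p-values then reflect only the spread between arrays, which may be technical.

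Levels are log2 of the deposited intensity, and a change is the level with PD-0332991 minus the level with DMSO. Each gene is read from its brightest probe set, and the test is limma with 2-sided p-values adjusted by the Benjamini-Hochberg method over all 13483 genes. A gene is called at an adjusted p below 0.05. A level of 4.88, the median of all values, is the limit below which a probe set counts as dim. The files give intensities and no counts, so the number of arrays limits the precision.

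The 2 arrays of a group correlated at 0.9935 to 0.9979 over all genes tested, and the DND41 pair with PD-0332991 was the widest, with a median absolute difference of 0.14. All 8 T-cell lineage genes listed (CD3D, CD3E, CD3G, CD247, CD2, CD5, CD7 and LCK) were above the dim limit in all 8 groups. Of the defining genes of other cell types, MS4A1, PAX5, CD14, LYZ, MPO, ITGAM, CDH1 and COL1A2 were dim in all 8 groups, while CD79A ranged from 7.48 to 10.86 and PECAM1 from 5.62 to 10.79. Of the 19 marker genes of other cell types that had values, 11 were above the limit in at least 1 group. With PD-0332991, 7 of the 8 T-cell genes were called higher, by 0.09 to 0.47, as were CD79A (0.25), PECAM1 (0.35) and ALAS2 (0.25), and no marker was called lower. On the same average of the lines, 26.7% of all genes tested were called higher and 20.0% lower. The part of these markers in the results below was not tested.

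At a replication origin, the MCM helicase ring is loaded in an inactive form and becomes the active CMG helicase when CDC45 and the GINS complex join it. TIMELESS and TIPIN form a complex that travels with the helicase and keeps unwinding coupled to synthesis. CLSPN (claspin) works beside them and passes the signal from the kinase ATR to CHEK1 when forks stall, and WDHD1 (AND-1) links the helicase to DNA polymerase alpha. Many replication genes are transcribed around the G1 to S transition under E2F factors, which the retinoblastoma protein restrains until CDK4, CDK6 and CDK2 phosphorylate it.

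Promoter sequence of 8 of the 9 genes is shown as a description, since E2F factors are textbook regulators of replication genes. The part of E2F factors in the changes given below was not tested. The RefSeq table (GRCh38.p14) matched these 8 members. Each line gives 70 bases before the annotated start and the first 30 bases of the transcript, in the gene's own direction, and capitals mark an E2F-type word. CDC45 and TIPIN have further annotated starts, and for each only the start with a marked word is shown. The promoter windows of their other starts held no such word. The words searched, on both strands, were TTCGCGC or TTCCCGC or TTGGCGC or TTGCCGC, and in CDC45 the capitals mark a looser word, TTGGCGG, that was added after the windows were read.
GINS1, chr20:25407603-25407702, plus strand: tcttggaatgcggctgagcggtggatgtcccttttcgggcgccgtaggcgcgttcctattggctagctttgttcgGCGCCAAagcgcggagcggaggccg
GINS2, chr16:85688925-85689024, minus strand: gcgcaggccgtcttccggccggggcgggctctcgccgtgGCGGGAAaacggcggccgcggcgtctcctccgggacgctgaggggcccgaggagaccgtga
GINS3, chr16:58392401-58392500, plus strand: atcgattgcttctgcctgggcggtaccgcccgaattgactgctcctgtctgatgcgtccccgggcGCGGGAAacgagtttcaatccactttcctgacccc
CDC45, chr22:19479850-19479949, plus strand: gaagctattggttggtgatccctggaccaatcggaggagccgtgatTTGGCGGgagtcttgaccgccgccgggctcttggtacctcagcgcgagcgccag
TIMELESS, chr12:56449397-56449496, minus strand: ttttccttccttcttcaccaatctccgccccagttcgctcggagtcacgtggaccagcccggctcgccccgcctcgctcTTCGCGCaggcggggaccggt
TIPIN, chr15:66356656-66356755, minus strand: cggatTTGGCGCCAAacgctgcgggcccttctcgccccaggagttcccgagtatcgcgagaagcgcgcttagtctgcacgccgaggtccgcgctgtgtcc
CLSPN, chr1:35769949-35770048, minus strand: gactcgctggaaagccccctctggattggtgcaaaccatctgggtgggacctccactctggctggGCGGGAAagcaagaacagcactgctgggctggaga
WDHD1, chr14:55027070-55027169, minus strand: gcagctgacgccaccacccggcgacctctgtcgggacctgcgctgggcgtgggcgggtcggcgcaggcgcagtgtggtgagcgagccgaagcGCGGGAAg

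In windows from 250 bases before to 50 bases after the start, 7 of the 8 genes held an E2F-type word, against 15.3% of the 27305 genes in the table. Counted by window, 7 of the members' 11 windows held it, since CDC45 has 3 annotated starts and TIPIN 2, against 13.0% of all 35116 windows. The exception was CDC45, which in its 3 windows held only the looser word, 24 bases before the start shown. That looser word was in 3.43% of all windows, and CLSPN held it too, 146 bases before its start. The word lay upstream in GINS2 (31 bases before the start) and in TIPIN, where overlapping forward and reverse copies begin 65 and 62 bases before the start shown. In GINS3 and CLSPN it begins 5 bases before the start and crosses it, and in GINS1, TIMELESS and WDHD1 it lies within the first 30 transcribed bases.

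The members' windows had a median GC content of 60.0% against 58.7% for all windows, and the word was in 17.5% of the windows at least as rich in GC as the poorest member window. The CHR-type words searched, TTTGAA or TTCGAA, which mark many G2 and M phase genes, were in none of the members' windows against 16.4% of all windows. The share of windows with CHR-type words at like GC content was not counted. A CCAAT box was in windows of 6 of the 8 genes against 39.7% of all genes, and in 7 of the 11 windows against 34.6% of all windows. A match describes the letters only and shows no binding, and the absence of a word shows only that these letters are not in this window.

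All 9 genes fell with PD-0332991. In limma each was called lower on the average of the lines, where 20.0% of all genes tested were called lower, and each was called lower in every line, against 5.65% of all genes called lower in all 4 lines. Every average fall was at least 2-fold, which 1.85% of all genes reached with a call. The median change over the 9 genes was -1.67 on the average of the lines, against 0.04 over all genes tested. For all 9 genes, each of the 8 arrays with PD-0332991 read below each of the 8 arrays with DMSO, which held for 3.06% of all genes. The members were chosen with earlier results of these data known, so these shares describe the set and do not test it. Without probe sets whose names end in _x_at or _s_at, which can bind more than 1 transcript, 7 of the 9 genes could be tested and 6 were called lower, GINS2 being lost. In whole-culture RNA, fewer cells that express these genes and less RNA per cell cannot be told apart.

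**Figure D1:**
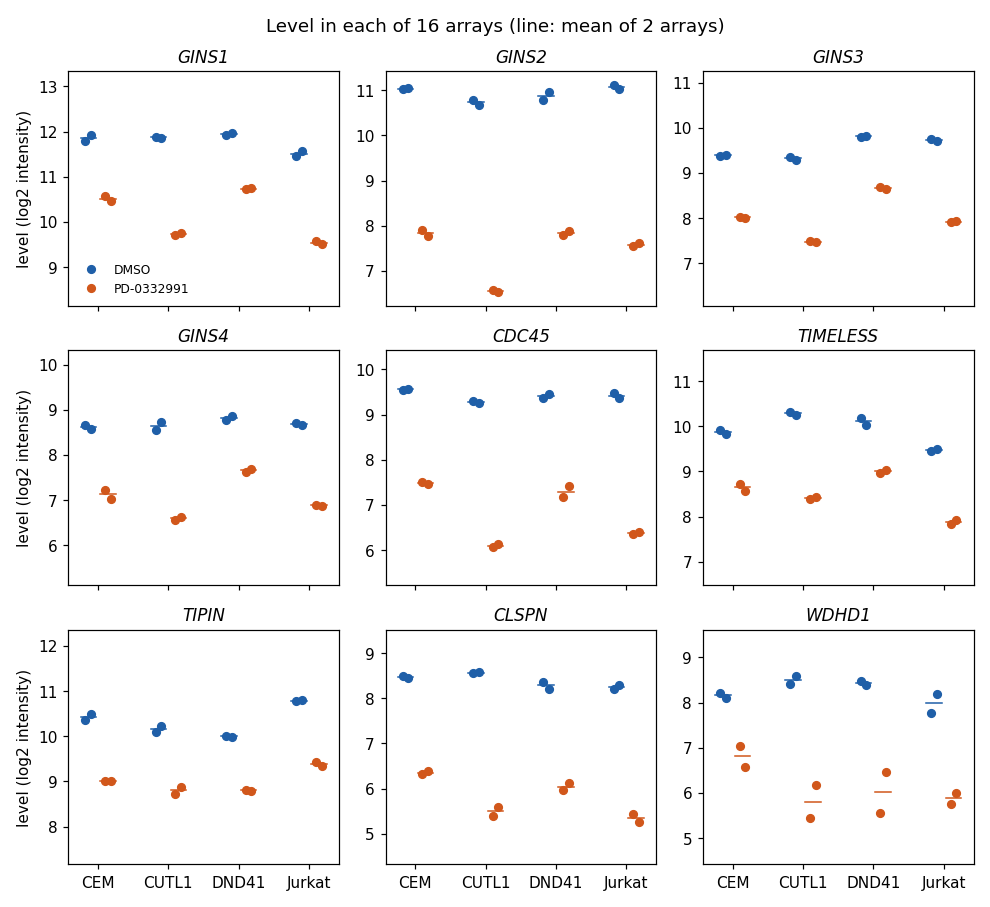
Level (log2 intensity) of the 9 genes in each of the 16 arrays, by line, with DMSO in blue and PD-0332991 in orange; points are arrays and short lines are means of 2 arrays. Every panel spans the same height of the log2 scale, and in each panel all orange points lie below all blue points.

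GINS2 fell by 3.47 on the log2 scale, the most of the 9 (SE 0.04, adjusted p = 2.95e-13 in limma), which is 11.1-fold and leaves 9% of the DMSO level. Its fall ranked 2 among all genes tested. GINS2 read 11.03 and 11.04 in CEM, 10.78 and 10.68 in CUTL1, 10.78 and 10.95 in DND41 and 11.11 and 11.03 in Jurkat with DMSO. It read 7.91 and 7.78 in CEM, 6.57 and 6.53 in CUTL1, 7.78 and 7.88 in DND41 and 7.55 and 7.62 in Jurkat with PD-0332991. The DMSO arrays thus lay within a narrow band, where Jurkat overlapped CEM and DND41 overlapped CUTL1, while CUTL1 stood below Jurkat, and Jurkat below the overlapping CEM and DND41, once treated. The fall was 18.1-fold in CUTL1, 11.2-fold in Jurkat, 9.15-fold in CEM and 8.19-fold in DND41.

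These GINS2 values rest on 1 of its 3 probe sets, 221521_s_at. A dimmer one, 243136_at, fell by 1.37 (adjusted p = 2.94e-07 over all probe sets) and was below the dim limit in the 4 treated groups. The remaining one, 1557595_at, did not pass the test, with a change of -0.03 (SE 0.07, adjusted p = 0.776) and means of 7.25 with DMSO and 7.22 with PD-0332991. With _s_at and _x_at probe sets left out, 1557595_at stands for the gene, and with the 3 probe sets averaged the change was -1.62. The deposited annotation gives all 3 probe sets the same gene, and what 1557595_at detects was not tested.

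The other GINS subunits fell together by about the same amount. GINS1 fell by 1.67 (SE 0.04, adjusted p = 1.31e-11), GINS4 fell by 1.62 (SE 0.04, adjusted p = 5.64e-11) and GINS3 fell by 1.54 (SE 0.03, adjusted p = 6.49e-12) in limma. These are falls of 3.17-fold, 3.08-fold and 2.91-fold, so that 31.5% of the GINS1 level, 32.4% of GINS4 and 34.3% of GINS3 remained.

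GINS1 read 11.79 and 11.92 in CEM, 11.88 and 11.86 in CUTL1, 11.93 and 11.96 in DND41 and 11.46 and 11.57 in Jurkat with DMSO. With PD-0332991 it read 10.57 and 10.45 in CEM, 9.71 and 9.75 in CUTL1, 10.73 and 10.75 in DND41 and 9.58 and 9.50 in Jurkat. The treated arrays therefore formed a higher pair of lines, DND41 and CEM, and a lower pair, CUTL1 and Jurkat, with no overlap between any of the 4 treated groups. In DMSO only CUTL1 and CEM overlapped.

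GINS3 read from 9.29 to 9.82 (median 9.55) over the 8 DMSO arrays and from 7.48 to 8.69 (median 7.96) over the 8 treated arrays. Its order in DMSO was DND41, Jurkat, CEM and CUTL1, and with PD-0332991 it was DND41, CEM, Jurkat and CUTL1, with no neighbouring groups overlapping in either. Its 2 probe sets gave changes of -1.54 and -1.53. GINS4 read from 8.56 to 8.87 (median 8.69) with DMSO, where Jurkat, CUTL1 and CEM overlapped, and from 6.56 to 7.69 (median 6.97) with PD-0332991, where no groups did. DND41 was the highest line for both genes in both treatments, and CUTL1 was the lowest for both after treatment. The 2 dimmer GINS4 probe sets that were tested fell by 0.86 and 0.88. The fourth was dim in all 8 groups and its change was -0.15, and the mean over all 4 was a fall of 0.88.

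CDC45, the helicase cofactor that bridges the MCM ring and GINS, fell by 2.60 (SE 0.04, adjusted p = 2.43e-12 in limma), a 6.07-fold fall that ranked 11 among all genes. It has a single probe set. CDC45 read 9.55 and 9.57 in CEM, 9.31 and 9.25 in CUTL1, 9.36 and 9.47 in DND41 and 9.47 and 9.36 in Jurkat with DMSO. Treated, it read 7.51 and 7.47 in CEM, 6.08 and 6.12 in CUTL1, 7.18 and 7.41 in DND41 and 6.35 and 6.40 in Jurkat. In DMSO the order was CEM, Jurkat, DND41 and CUTL1 with Jurkat and DND41 overlapping. The DMSO levels differed by 0.28 at most between line means, and the treated levels by 1.39, with CEM and DND41 high and Jurkat and CUTL1 low. What remained was 23.9% of the DMSO level in CEM and 23.1% in DND41, but 12.1% in Jurkat, and the fall in CUTL1 was 9.07-fold.

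CLSPN, the checkpoint mediator at the fork, fell by 2.58 (SE 0.05, adjusted p = 5.59e-12 in limma), or 5.99-fold, next after CDC45 in the ranking of falls. CLSPN read 8.48 and 8.46 in CEM, 8.55 and 8.59 in CUTL1, 8.37 and 8.21 in DND41 and 8.20 and 8.30 in Jurkat with DMSO. After PD-0332991 it read 6.31 and 6.39 in CEM, 5.39 and 5.60 in CUTL1, 5.97 and 6.12 in DND41 and 5.45 and 5.25 in Jurkat. With DMSO, CUTL1 was highest, CEM next, and DND41 and Jurkat overlapped. When treated, CEM was highest, DND41 next, and CUTL1 and Jurkat overlapped at the bottom. Of its other probe sets, 219621_at fell by 0.50 (adjusted p = 0.00167 over all probe sets) near the dim limit. By line, 219621_at was called lower only in CUTL1 (-0.81, adjusted p = 0.013 in limma). It was not called in CEM (-0.60, 0.0518), DND41 (-0.20, 0.493) or Jurkat (-0.39, 0.203). The other 2 probe sets were dim in all 8 groups. With all 4 averaged the CLSPN fall is 1.15.

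TIMELESS and TIPIN, the partners of one complex, had the smallest average falls of the 9 by their brightest probe sets. With all probe sets averaged, GINS4 (-0.88), TIMELESS (-1.0045) and CLSPN (-1.15) fell less than TIPIN (-1.35). TIMELESS fell by 1.45 (SE 0.04, adjusted p = 9.42e-11) and TIPIN by 1.35 (SE 0.04, adjusted p = 1.1e-10) in limma, or 2.73-fold and 2.54-fold. TIPIN read 10.36 and 10.50 in CEM, 10.10 and 10.22 in CUTL1, 10.01 and 9.98 in DND41 and 10.78 and 10.80 in Jurkat with DMSO. In the treated arrays it read 9.01 and 8.998 in CEM, 8.73 and 8.87 in CUTL1, 8.81 and 8.79 in DND41 and 9.42 and 9.34 in Jurkat. The order Jurkat, CEM and then the other lines was the same in both treatments, with CUTL1 and DND41 overlapping only when treated.

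TIMELESS had the opposite placing of Jurkat. Over the DMSO arrays it read 9.44 to 10.33 (median 9.97), in the order CUTL1, DND41, CEM and Jurkat with no overlap. With PD-0332991 it read 7.83 to 9.04 (median 8.51), in the order DND41, CEM, CUTL1 and Jurkat, again with no overlap. CUTL1 was thus the highest line with DMSO and stood below DND41 and CEM when treated. The values of TIMELESS come from 203046_s_at, since its other probe set was dim in 7 of 8 groups.

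WDHD1 fell by 2.14 (SE 0.15, adjusted p = 2.58e-07 in limma), or 4.41-fold, with the widest replicate spread of the 9. WDHD1 read 8.22 and 8.11 in CEM, 8.40 and 8.58 in CUTL1, 8.49 and 8.38 in DND41 and 7.78 and 8.19 in Jurkat with DMSO. It read 7.05 and 6.57 in CEM, 5.46 and 6.17 in CUTL1, 5.56 and 6.47 in DND41 and 5.75 and 6.004 in Jurkat when treated. With DMSO, CUTL1 overlapped DND41 and, below them, CEM overlapped Jurkat. The DND41, Jurkat and CUTL1 arrays overlapped after treatment, and CEM stood above them. Its fitted array-to-array SD of 0.29 was larger than that of 99.3% of all genes tested, against 0.06 to 0.10 for the other 8 members. All 3 of its probe sets fell, by 1.78, 1.98 and 2.14.

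**Figure D2:**
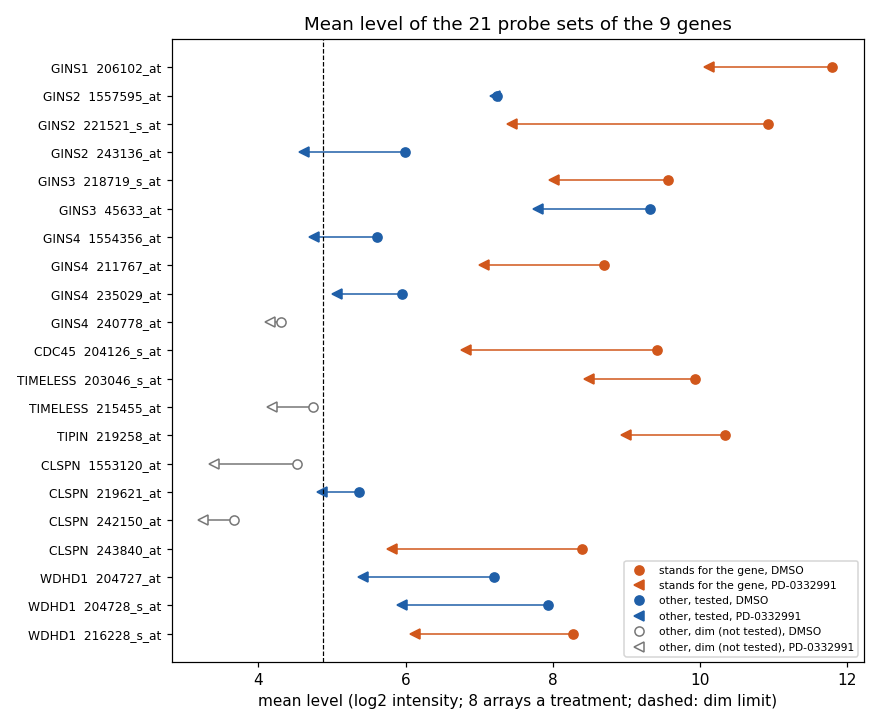
Mean level (log2 intensity) of the 21 probe sets of the 9 genes over the 8 DMSO arrays (circles) and the 8 PD-0332991 arrays (triangles); orange marks the probe set that stands for its gene, blue the others tested, open grey the dim ones, and the dashed line the dim limit of 4.88. The triangle lies left of the circle for all but 1557595_at of GINS2, where the 2 symbols lie on each other.

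Of the 21 probe sets 17 were tested and 16 were called lower, with 0 higher, where 19.2% of all probe sets tested were called lower. The 4 untested ones, from GINS4, TIMELESS and CLSPN, were dim in at least 7 of the 8 groups. Levels of different probe sets cannot be set against each other, so the plot of probe sets is read along each row only.

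The size of the fall differed between the lines for 7 of the 9 genes by the interaction F test of limma, against 12.6% of all genes. The adjusted p was 0.000213 for CDC45, 0.00044 for GINS1, 0.000493 for GINS2, 0.000842 for GINS3, 0.00234 for CLSPN, 0.00372 for GINS4 and 0.00438 for TIMELESS. With all probe sets averaged, the test was no longer passed by GINS4 (adjusted p = 0.126) and CLSPN (0.112). Left without _s_at and _x_at probe sets, 4 members were called, since CDC45 and TIMELESS then have no tested probe set and GINS2 was not called.

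CUTL1 had the largest fall of the 4 lines in 8 of the 9 genes, and DND41 the smallest in 6 and CEM in 3. Among the 2694 genes called lower on average, CUTL1 had the largest fall in 33.5% DND41 the smallest in 29.4% and CEM the smallest in 29.5%. Among the 43 replication partners called lower, from the lists described further on, CUTL1 had the largest fall in 60.5%, DND41 the smallest in 48.8% and CEM the smallest in 34.9%. The members' median change was -2.14 in CUTL1 and -1.98 in Jurkat, and -1.42 in CEM and -1.21 in DND41. The share of all genes called lower was 12.7% in CUTL1, 11.4% in Jurkat, 11.6% in CEM and 17.1% in DND41. The DND41 figure depends on the scaling, with 2305 genes lower and 1495 higher as given, 2880 and 899 after centring each array on its median, 1760 and 2156 under quantile and 1838 and 1917 under cyclic loess normalization.

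By pairs of lines, the fall differed between CUTL1 and DND41 in 7 of the 9 genes (7.15% of all genes), between CEM and CUTL1 in 7 (5.14%) and between DND41 and Jurkat in 7 (9.52%). It differed between CEM and Jurkat in 4, GINS1, GINS3, CDC45 and CLSPN (1.97%). CUTL1 and Jurkat differed in GINS2 only (2.55%), and CEM and DND41 in none (9.31%). For CDC45 the difference in change between CEM and DND41 was 0.05, with a 95% interval from -0.20 to 0.30, and between CUTL1 and Jurkat it was -0.14, from -0.39 to 0.12. GINS4 leaves more room, since CEM minus DND41 was -0.32 (interval from -0.59 to -0.06 before adjustment, adjusted p = 0.103 in limma). The same pair of lines gave -0.23 for GINS3 (-0.41 to -0.05, 0.097) and 1.07 for WDHD1 (0.17 to 1.97, 0.112). CUTL1 minus Jurkat was -0.28 for TIMELESS (-0.53 to -0.03, 0.266). CEM minus Jurkat was 0.29 for GINS2 (0.04 to 0.54), 0.32 for GINS4 (0.06 to 0.58) and 0.37 for TIMELESS (0.12 to 0.62), none called. These pairs share lines and are not independent of each other.

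**Figure D3:**
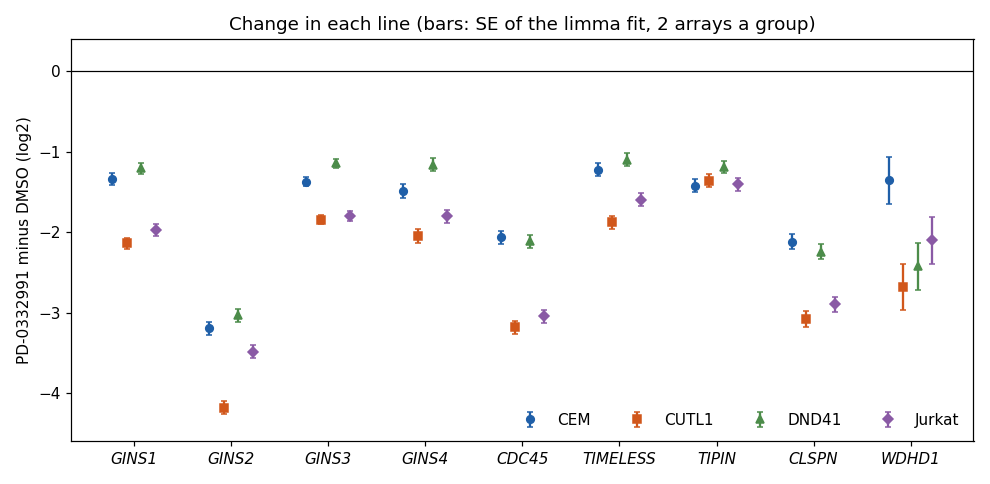
Change of each gene (PD-0332991 minus DMSO, log2) in CEM, CUTL1, DND41 and Jurkat; points are fitted changes from 2 arrays a group and bars the SE of the limma fit. CUTL1 lies lowest in 8 genes, TIPIN has the 4 lines close together from -1.42 to -1.19, and WDHD1 has the longest bars.

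TIPIN and WDHD1 were the members without a called difference between lines. The change of TIPIN was -1.42 in CEM, -1.41 in Jurkat, -1.36 in CUTL1 and -1.19 in DND41 (interaction adjusted p = 0.343 in limma), and the difference between CEM and CUTL1 was -0.06 with a 95% interval from -0.30 to 0.17. That of WDHD1 was -1.36 in CEM, -2.10 in Jurkat, -2.42 in DND41 and -2.68 in CUTL1 (interaction adjusted p = 0.133), a span of 1.33 that was wider than for any other member. The interval for CEM against CUTL1 in WDHD1 ran from 0.43 to 2.23 before adjustment (adjusted p = 0.0951). Without the second DND41 array with PD-0332991, the WDHD1 interaction was called (adjusted p = 0.0342).

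With DMSO alone, the 4 lines differed in 6 of the 9 genes by the F test of limma, against 71.2% of all genes. CUTL1 and Jurkat differed in 6 genes (49.5% of all genes), CEM and CUTL1 in 4 (43.4%), CEM and Jurkat in 4 (48.1%), CEM and DND41 in 3 (45.7%), DND41 and Jurkat in 3 (46.9%) and CUTL1 and DND41 in 2 (44.1%). The largest DMSO ranges between line means were those of TIMELESS (0.81, adjusted p = 1.45e-05) and TIPIN (0.79, adjusted p = 1.03e-05), with Jurkat lowest for the first and highest for the second. GINS4 (range 0.21, adjusted p = 0.159), CDC45 (0.28, 0.0566) and WDHD1 (0.51, 0.348) were not called. The call for GINS2 (range 0.34, adjusted p = 0.00751) was lost with its probe sets averaged (0.323) and without _s_at and _x_at probe sets (0.308). The call for CLSPN (range 0.32, adjusted p = 0.0293) was lost when arrays were centred on their medians (0.0746) and without any 1 of 5 DMSO arrays, the first of CEM, either of CUTL1, the second of DND41 or the first of Jurkat (0.052 to 0.0941). CDC45 was called on log2(value + 16) (0.0413), under quantile (0.0469) and cyclic loess normalization (0.0398), with all probe sets averaged (0.0451), and without either of the DND41 arrays with PD-0332991 (0.0211 and 0.0212).

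The lines lay further apart after treatment than before it in 8 of the 9 genes, TIPIN being the exception, against 55.0% of all genes. The median range over line means was 0.43 with DMSO and 1.13 with PD-0332991 for the members, and 0.55 and 0.59 for all genes tested. These ranges are a description and carry no test of their own.

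Ratios of 2 genes within an array show whether partners changed unequally. For 8 pairs, the difference between the genes' changes was tested by a 2-sided exact permutation of treatment within lines, with 1296 assignments and a smallest possible p of 0.00154, and adjusted over the 8 pairs. GINS2 fell more than each other GINS subunit in 4 of 4 lines. GINS1 minus GINS2 was 1.81, GINS2 minus GINS3 -1.93 and GINS2 minus GINS4 -1.85 (each with an adjusted p = 0.00308 by exact permutation). It also fell more than CDC45, since CDC45 minus GINS2 was 0.87 (adjusted p = 0.00308, exact permutation), from 0.44 in Jurkat to 1.13 in CEM. These results rest on 221521_s_at. With all probe sets averaged the GINS2 differences from GINS1 and CDC45 turned sign, and the one from GINS3 was lost, and with 1557595_at standing for the gene those from GINS1, GINS3 and GINS4 turned sign.

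Among GINS1, GINS3 and GINS4 the differences were small by the brightest probe sets. GINS1 minus GINS4 was -0.04 with an SD over the 4 lines of 0.13 (adjusted p = 0.421, exact permutation) and GINS3 minus GINS4 was 0.08 with an SD of 0.09 (adjusted p = 0.103, exact permutation). GINS1 minus GINS3 was -0.12 with an SD of 0.14, GINS1 falling more in 3 of 4 lines (adjusted p = 0.0445, exact permutation). This call was lost under quantile normalization (0.121, exact permutation), under cyclic loess (0.0617, exact permutation) and without _x_at and _s_at probe sets (0.0778, exact permutation). It was also lost without any 1 of 8 arrays, which were the second CEM array of either treatment, either DND41 DMSO array, the first DND41 array with PD-0332991, the second Jurkat DMSO array and either Jurkat array with PD-0332991 (0.0519 to 0.104, exact permutation). With all probe sets averaged, the dim ones included, GINS4 fell less than both, since GINS1 minus GINS4 was -0.79 and GINS3 minus GINS4 turned to -0.66 (adjusted p = 0.00309 each, exact permutation). On log2(value + 16), GINS1 minus GINS4 was -0.14 (adjusted p = 0.035, exact permutation).

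TIMELESS minus TIPIN was -0.10 with an SD over lines of 0.32 (adjusted p = 0.319, exact permutation). With all probe sets averaged it turned to 0.34 and passed the test (adjusted p = 0.00494, exact permutation), the dim probe set of TIMELESS being included. The average hides opposite signs, since the difference was -0.51 in CUTL1 and -0.19 in Jurkat, and 0.20 in CEM and 0.09 in DND41. TIMELESS therefore fell further than its partner in CUTL1 and Jurkat by these values, and the difference between lines in this ratio was not tested.

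**Figure D4:**
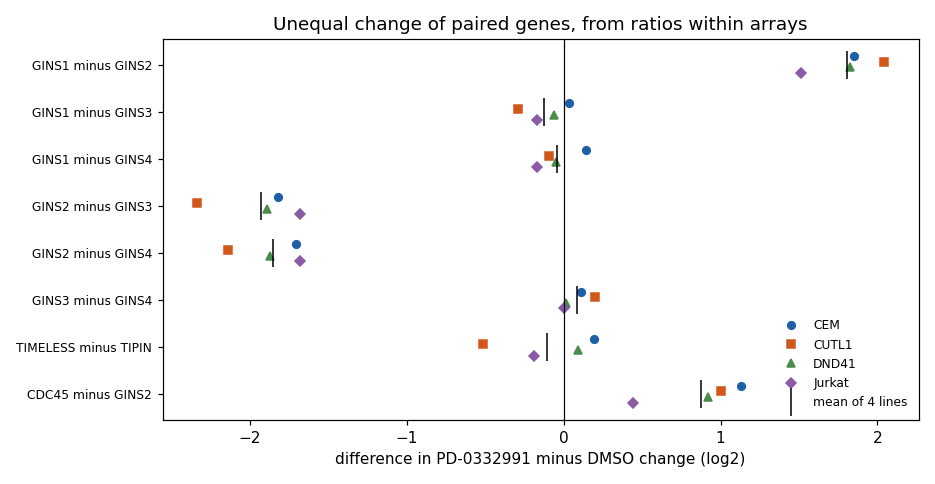
Difference between the changes of paired genes (first minus second, log2) in each line, with a black bar at the mean of the 4 lines; a value below 0 means that the first gene fell more. The 4 pairs with GINS2 lie away from 0 in all lines, and TIMELESS minus TIPIN spreads from -0.51 in CUTL1 to 0.20 in CEM.

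The genes that work with these members fell in most lists, by counts on the average of the lines. All 6 MCM helicase subunits were called lower, with a median change of -2.09, and MCM5 (-2.53), MCM2 (-2.23) and MCM3 (-1.95) are examples. All 4 genes of DNA polymerase alpha and primase were lower (median -1.57), with PRIM1, the catalytic primase subunit, at -1.81, POLA2 at -1.64 and POLA1, the polymerase subunit, at -1.49. All 9 origin firing factors were lower (median -1.13). MCM10, which acts in helicase activation, fell by 2.93, DONSON, which helps bring GINS to the MCM ring, fell by 2.22, and CDC7, the kinase that phosphorylates MCM, fell by 1.43.

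The list of the leading-strand polymerase and the CTF18 clamp loader had 6 of 7 genes lower (median -0.70). POLE2 fell by 2.25 and DSCC1 fell by 2.18, while POLE, the catalytic subunit, fell by 0.95 and CHTF8 gave 0.04 (adjusted p = 0.294 in limma). The fork chromatin list had 6 of 6 tested genes lower, with a median of -1.25. Its histone chaperones ASF1B (-2.02), CHAF1A (-1.98) and CHAF1B (-1.81) led it, and SSRP1 and SUPT16H, the subunits of the FACT complex, fell by 0.49 each. These lists thus held large falls beside small ones.

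The replication checkpoint and helicase unloading lists moved less. Of 10 checkpoint genes tested, 7 were lower and 0 higher (median -0.43), with CHEK1, the kinase that claspin presents to ATR, at -2.17, RPA3 at -0.67 and RPA2 at -0.51. ATR itself gave 0.11 (adjusted p = 0.0925 in limma). Of 7 helicase unloading genes 5 were lower and 1 higher (median -0.31). LRR1, the substrate receptor of the ligase that marks the terminated helicase, fell by 1.01, TRAIP, another ligase acting on the helicase, by 0.88, and FAF1, a cofactor of the segregase, by 0.58. VCP, the segregase that extracts the helicase, rose by 0.26 (adjusted p = 3.11e-05 in limma). The counts stand against 20.0% of all genes called lower and 26.7% called higher, and the lists were chosen with earlier results of these data known.

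**Figure D5:**
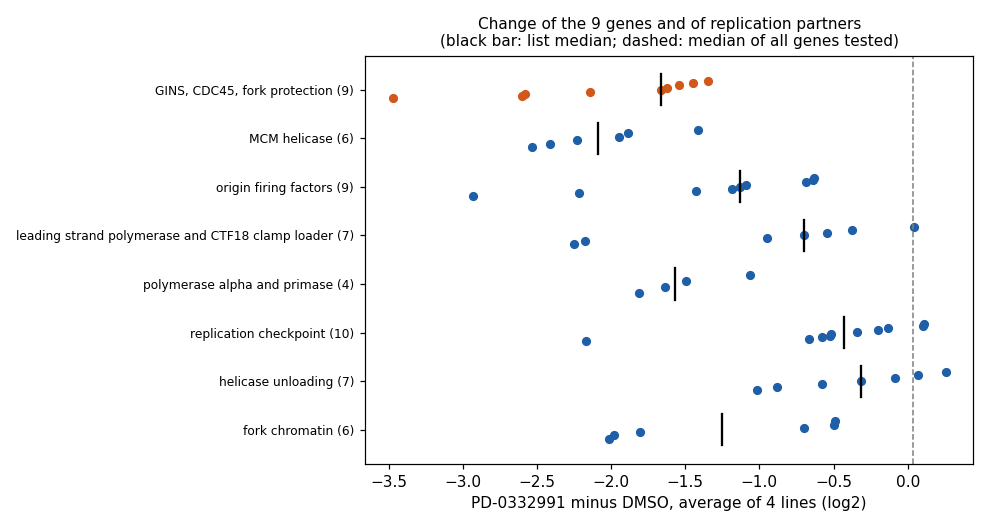
Average change (PD-0332991 minus DMSO over 4 lines, log2) of the 9 genes in orange and of the tested genes of 7 lists of replication partners in blue, with the number of genes in brackets; black bars are list medians and the dashed line is the median of all genes tested. The MCM helicase list lies farthest left with a median of -2.09, and the checkpoint and unloading lists reach past 0.

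The profile over the 8 group means was compared with that of every other gene tested by Pearson's r, as a description over 8 points that share the treatment split. Genes with placeholder names (LOC, KIAA, FLJ, FAM, LINC and open reading frame names) were passed over, here and for single members. Of the rest, the genes most like the mean of the 9 members were CHAF1A (r = 0.998), CDC25A (0.997), DCLRE1B (0.996), DTL (0.996) and MCM2 (0.994). For single members the closest gene was CDC6 for CDC45 (0.9995), BARD1 for GINS1 (0.999), CDK2 for CLSPN (0.998), DONSON for GINS2 (0.998), HELLS for WDHD1 (0.998) and UBE2T for GINS4 (0.997). PHF5A was closest to TIPIN (0.997), RAD54B to GINS3 (0.995) and SLF2 to TIMELESS (0.990), and PHF5A and SLF2 fell by only 0.52 and 0.67. Against the mean of the other 8 members, CDC45 (0.992) was the most alike and TIPIN (0.854) the least.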

How the data were processed

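RNA of 16 samples was measured on Affymetrix Human Genome U133 Plus 2.0 arrays. The authors deposited 1 intensity per probe set and array, made with RMA per the submitters' processing notes; the RMA version is not given in the sources used here. These values are on a linear scale, so log2 was taken with no pseudocount and no further scaling. Of 54675 probe sets, 41097 have 1 gene symbol in the platform annotation, 1801 several and 11777 none; 41043 matched RefSeq by gene ID and 0 symbols changed. The single-symbol probe set with the highest mean stands for a gene, and genes entered the test if, in any line, the 4 arrays averaged at or above the median of the whole table (4.88 on the log2 scale). The 8 group means were fitted with limma 3.58.1 in R 4.3.3 (8 residual and 3.32 prior degrees of freedom). The tests were checked on simulated data, and sequences were searched with Python 3.11.15 and pandas 2.3.3. Figures were drawn with matplotlib 3.10.9.

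The text names all members, the 3 genes with the smallest average p of each partner list, the 5 genes most like the members' mean profile and the 1 most like each member. For likeness, genes with placeholder names were passed over. CHTF8, ATR, VCP, SSRP1 and SUPT16H fall outside this rule and were picked with their values in view. The members and lists were chosen with earlier results of these data known. Alternatives were scale, normalization, dim filter, probe set choice, variance model, unit of replication, the replicate block, and leaving out each array or line.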

Additional observations from a re-analysis of the deposited data

Results flagged for a closer look

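The fall with PD-0332991 differed between the 4 lines for 7 of the 9 genes, by limma's interaction F test with Benjamini-Hochberg adjustment over all genes. The adjusted p was 0.00044 for GINS1, 0.000493 for GINS2, 0.000842 for GINS3, 0.00372 for GINS4, 0.000213 for CDC45, 0.00438 for TIMELESS and 0.00234 for CLSPN. The span between the largest and the smallest fall was 1.15 for GINS2 and 1.12 for CDC45, and 0.70 for GINS3, the narrowest of the 7.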

How the results depend on the processing

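Over the alternatives run, 1673 of 1696 comparisons of single member values stayed the same, as did 153 of 174 for pairs of genes. The same here means the same side of the threshold, and the same direction unless neither value was called. Many of these comparisons had little room to change. Leaving out an array of another line does not move a member's change within a line, and averaging probe sets does not move GINS1, CDC45 or TIPIN. Settings that left CDC45 and TIMELESS untested are not counted for them, so the tally is no measure of robustness. Of 519 comparisons of counts, 482 stayed within 1.5 times of the count without the alternative. The choice of probe set moved the members most. Without _x_at and _s_at probe sets, the change of GINS2 in DND41 was 0.23, and 4 members were called for a difference between lines. In that setting GINS1 minus GINS2 was -1.64, GINS2 minus GINS3 1.499 and GINS2 minus GINS4 1.60. GINS1 minus GINS3 was -0.14 there and no longer called. With all probe sets averaged, GINS1 minus GINS2 was -0.043, GINS1 minus GINS4 -0.79, GINS2 minus GINS3 -0.089, GINS3 minus GINS4 -0.66, TIMELESS minus TIPIN 0.34 (adjusted p = 0.00494 by exact permutation) and CDC45 minus GINS2 -0.98. The first setting puts other probe sets in place of _s_at ones and leaves CDC45 and TIMELESS without a tested probe set, and the second takes means that include dim probe sets. GINS1 minus GINS4 passed the threshold on log2(value + 16), at -0.14, and GINS1 minus GINS3 missed it under quantile (-0.12) and cyclic loess (-0.12) normalization and ranged from -0.14 to -0.11 without single arrays. The cause of these was not tested. Without single arrays 7 to 8 members were called for a difference between lines.

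Counts over all genes moved by more than 1.5 times in these cases, apart from most DND41 counts under other scalings. Of those, only the 899 higher after centring moved that far. With each line as 1 replicate, 1285 were called lower and 1261 higher on average (2694 and 3594 otherwise), and with limma's trend 2604 differed between lines (1700 otherwise). In DND41, 2305 were lower and 1495 higher, against 2880 and 899 after centring each array on its median, 1760 and 2156 under quantile and 1838 and 1917 under cyclic loess normalization, so the lean to lower calls grew under the first and turned under the others. Without _x_at and _s_at probe sets, 1008 were lower in CEM (1568) and 970 in Jurkat (1535). With each line fitted alone, 1278 were lower and 571 higher in DND41 (2305 and 1495), 1211 higher in CUTL1 (1966) and 1345 higher in Jurkat (2110). Leaving out 1 array gave as few as 777 genes that differed between lines, 1004 lower in CEM, 1372 lower in DND41, and 1186, 1127, 699 and 1097 higher in CEM, CUTL1, DND41 and Jurkat. Fewer arrays enter those fits.

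The labels do not say whether the replicate numbers pair the arrays. The correlation of same-numbered deviations was 0.076 in CEM, 0.195 in CUTL1, -0.108 in DND41 and 0.105 in Jurkat, which cannot settle it. With the number as a replicate block, 9 members stayed called lower on average and in each line and 7 for a difference between lines, while the count of all genes that differ between lines fell to 1079. DMSO differences and gene pairs could not be fitted with the block. With 2 arrays a group, differences between lines within the intervals given in the report were not resolved. Genes and probe sets whose mean was below the dim limit in every line were not tested.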

Other observations

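The replicate spread of WDHD1 was shared by its 3 probe sets. In DND41 with PD-0332991 the first array read below the second by 0.64, 1.03 and 0.91 in the 3, and in CUTL1 with PD-0332991 by 0.60, 0.49 and 0.71. In CEM with PD-0332991 the first array read above the second by 0.73, 0.45 and 0.48.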
